A study of Mus musculus with 11 samples.

Results

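The 39 genes described here mark macrophages and monocytes, the phagocytes that share lymph nodes and tumours with lymphocytes. They were chosen by name from a fixed list, through the gene name that the array files give to each probe, and were read by 50 of the 39429 probes of the array. A gene was represented by its brightest probe. The genes form 3 lists: 21 tissue macrophage genes, 5 monocyte genes and 13 genes that both cells share. Of the 39 genes, 37 had a probe well above background on at least 3 arrays and were tested among 20181 genes.

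The samples were 11 lymph node lymphomas, namely 4 of plasma cell origin (PCL), 3 of mantle cell origin (MCL) and 4 Burkitt tumours (BL), named here by type and replicate number. All came from Black 6 mice of the genotype c-myc-3'RR/p53+/-, so every tumour carried a c-myc transgene under a 3' control region (3'RR) of the antibody heavy chain gene, which is active in B cells, and was p53 heterozygous. The labels call the cells of all 3 types mature B cells, give no age and no treatment, and do not say whether each tumour came from a separate mouse, so p-values speak to the spread among these arrays alone, part of which may be technical. No normal lymph node was analysed here. Each type lay on its own slide, and type and slide cannot be told apart.

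Total RNA, 0.2 µg per tumour with an RNA integrity number of 8 to 10, was labelled with Cy3 and hybridised to one-colour arrays, on which 55.5% to 62.8% of the 43020 non-control spots were well above background. Values below are normalised signals, the log2 of the processed spot intensity minus the 75th percentile of the same array, so a value of 0 is the brightness that 75% of spots do not exceed. With 3 or 4 arrays a type, precision is limited by their number. B lineage transcripts were present in all tumours: Cd79b, a chain of the B cell receptor complex, lay between 5.85 and 7.36 on the 11 arrays. Fewer cells of a type and less RNA per cell cannot be told apart in such bulk samples.

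Tissue macrophages settle in organs, where they engulf dying cells and debris. They bind apoptotic cells through the receptor kinases Axl and Mertk, opsonise them with complement C1q, take up modified lipoproteins and other ligands through scavenger receptors, and recycle iron by breaking haem with Hmox1 and exporting the iron through Slc40a1. Monocytes circulate in blood and enter tissue through the chemokine receptors Ccr2 and Cx3cr1. In lymphomas such cells form part of the tumour's surroundings, and macrophages that clear dying tumour cells give human Burkitt lymphoma its starry sky pattern.

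Across the 11 tumours, the macrophage and monocyte genes varied far more than most genes. The median range from the lowest to the highest tumour was 4.82 log2 units for the 37 genes tested, against 1.57 for all genes tested. It exceeded 4 log2 units in 70.3% of the 37 genes, against 11.9% of all genes. Differences between tumours of the same type were large too: the 37 genes had a median standard deviation of 1.55 among PCL tumours, 1.39 among MCL tumours and 0.62 among BL tumours, against 0.33, 0.36 and 0.41 for all genes tested.

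**Figure D1:**
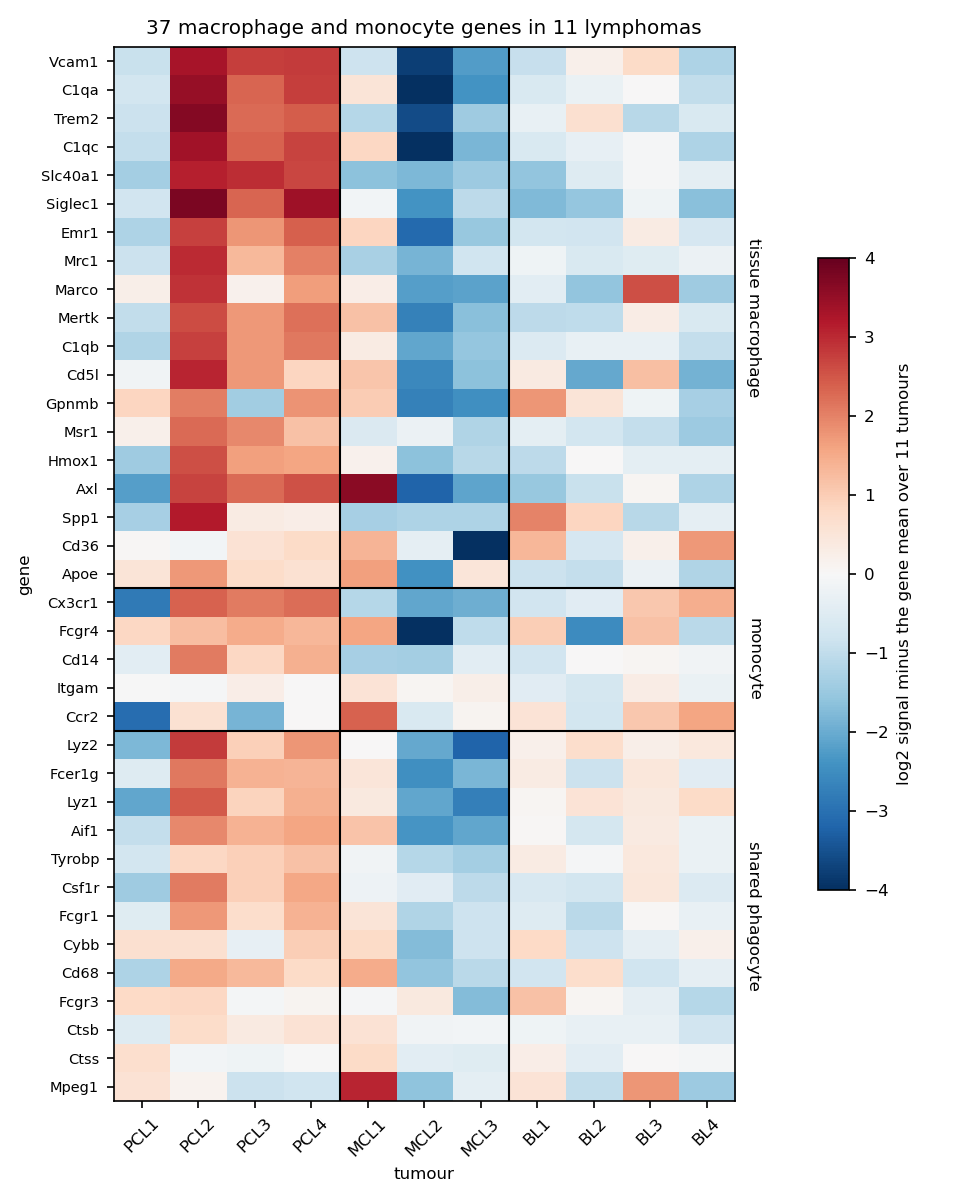
Normalised signal of each of the 37 genes tested (rows, in 3 lists, ordered by the PCL minus MCL difference) in each tumour (columns), in log2 units relative to the gene's mean over the 11 tumours. Red is above and blue below that mean, and the scale is held at 4 in both directions. PCL2, PCL3 and PCL4 are red in most rows, PCL1 is blue in many, and MCL2 and MCL3 are the bluest columns.

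A few tumours held most of the extremes. PCL2 was the highest of all 11 tumours for 27 of the 37 genes, MCL1 for 6, PCL4 for 2 and BL1 and BL4 for 1 each. MCL2 was the lowest for 24, MCL3 for 6, PCL1 for 3, BL4 for 2, and MCL1 and BL2 for 1 each. MCL2 also had the lowest RNA integrity number, 8 against 9 or 10 elsewhere, and its part in these values was not tested.

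Tumours of 1 type stood apart from each other in the same way for most of the genes. PCL1 was the lowest of the 4 PCL tumours for 78.4% of the 37 genes, against 33.4% of all genes tested, and PCL2 was the highest PCL tumour for 81.1% of them, against 16.3% of all genes. MCL1 was the highest of the 3 MCL tumours for 83.8% of the 37 genes, against 30.4% of all genes. PCL1 had an RNA integrity number of 9 and 62.2% of its spots well above background, against 55.5%, 57.1% and 60.01% in the other PCL tumours.

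The median of the tissue macrophage genes, each centred on its mean over all tumours, showed the order of the tumours. It was -0.86, 2.88, 1.75 and 2.12 in PCL1 to PCL4, against 0.34, -2.42 and -1.54 in MCL1 to MCL3 and -0.61, -0.61, -0.03 and -0.97 in BL1 to BL4. PCL2, PCL3 and PCL4 thus lay above every other tumour, and PCL1 lay below MCL1. The shared phagocyte genes gave -0.51, 1.53, 0.91 and 1.16 in PCL, against 0.50, -1.57 and -1.07 in MCL and 0.19, -0.42, 0.24 and -0.30 in BL. The 5 monocyte genes gave -0.44, 1.23, 0.82 and 1.31 in PCL, against 0.56, -1.35 and -0.41 in MCL and -0.46, -0.70, 1.08 and -0.13 in BL. Among the monocyte genes BL3 reached the level of the higher PCL tumours, which it did not among the tissue macrophage genes.

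**Figure D2:**
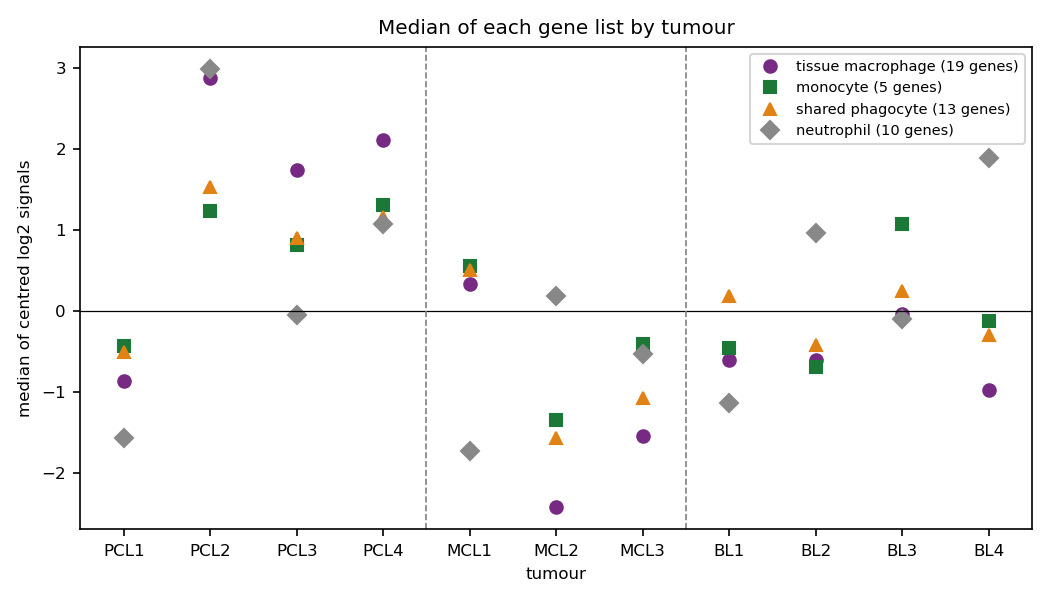
Median of the centred normalised signals (log2 units, vertical axis) of the tissue macrophage, monocyte and shared phagocyte genes, and of 10 neutrophil genes, in each tumour (horizontal axis; dashed lines part the types). The macrophage list reaches 2.88 in PCL2 and -2.42 in MCL2, and the neutrophil list, at 1.90 in BL4, does not follow the same order.

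The first comparison asked which of these genes differed between plasma cell and mantle cell lymphomas. In the limma fit of all 11 arrays, 4 of the 37 genes passed a Benjamini-Hochberg adjusted p of 0.05 over all genes tested, all of them higher in PCL: Msr1, Vcam1, Trem2 and Cd14. Among all genes tested, 6.94% were called in this comparison and 2.13% were called as higher in PCL. By sign, 34 of the 37 genes were higher in PCL, and the median difference was 2.09 log2 units, against -0.03 for all genes. The values of PCL and MCL tumours did not overlap, with PCL above, for 3 of the 37 genes (Msr1, Slc40a1 and Trem2), against 9.07% of all genes.

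Vcam1, an adhesion molecule of macrophages that clear red cells and also of endothelium and stroma, showed the widest difference of the members, on chromosome 3 (probe chr3:115813216-115813275, minus strand, mm9). Its signal was -2.19, 2.01, 1.48 and 1.50 in PCL1 to PCL4, against -2.11, -5.06 and -3.52 in MCL1 to MCL3 and -2.21, -1.09, -0.53 and -2.52 in BL1 to BL4. PCL2, PCL3 and PCL4 lay above all other tumours, while PCL1 fell inside the range of the others. The difference between PCL and MCL was 4.27 ± 1.04 log2 units (SE, limma adjusted p = 0.0395), and that between PCL and BL was 2.29 ± 0.96 (limma adjusted p = 0.255). A second probe for Vcam1, nearer the start of the transcript, gave 3.29 and 2.08 for the same differences. The sequence of this second probe, on which the call does not rest, is shown, at chr3:115828953-115829012 on the minus strand of mm9.
Vcam1 probe: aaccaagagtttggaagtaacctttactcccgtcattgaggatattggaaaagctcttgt

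Trem2, a lipid-sensing receptor that signals through Tyrobp, was the next called gene in size. It measured -5.14, -0.59, -2.01 and -1.87 in PCL, against -5.41, -7.85 and -5.69 in MCL and -4.58, -3.65, -5.40 and -4.87 in BL. All 4 PCL tumours were above all 3 MCL tumours, although PCL1 exceeded MCL1 by less than the distance between any other PCL tumour and MCL1. PCL exceeded MCL by 3.91 ± 0.99 log2 units (SE, limma adjusted p = 0.0439) and BL by 2.22 ± 0.91 (limma adjusted p = 0.244).

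Msr1, a scavenger receptor for modified lipoproteins, lies on chromosome 8 (probe chr8:40709296-40709355, minus strand, mm9) and was the only member called by the moderated F test over the 3 types (adjusted p = 0.021), where 8.43% of all genes were called. Its signals were -5.29, -3.24, -3.58 and -4.34 in PCL, against -6.08, -5.75 and -6.70 in MCL and -5.88, -6.25, -6.44 and -6.94 in BL. The PCL tumours did not overlap with either other type, PCL1 included. The probe was well above background on all 4 PCL arrays but on 1 of 3 MCL and 1 of 4 BL arrays. PCL was higher than MCL by 2.06 ± 0.47 log2 units (SE, limma adjusted p = 0.0314), and the difference of 2.27 ± 0.44 from BL narrowly missed the threshold (limma adjusted p = 0.0528). A second probe was well above background on 3 PCL arrays, 0 MCL arrays and 1 BL array. Its PCL mean was 3.13-fold above MCL with MCL held no lower than the dimmest signal well above background, and 1.70 log2 units above BL. That mean includes a PCL array on which this second probe was not well above background. The sequence of the first is shown because the only F call among the members rests on it.
Msr1 probe: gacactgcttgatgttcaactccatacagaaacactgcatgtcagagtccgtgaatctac

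Cd14, the co-receptor for bacterial lipopolysaccharide, was the called gene of the monocyte list. It gave -3.86, -1.34, -2.60 and -1.99 in PCL, against -4.74, -4.78 and -3.83 in MCL and -4.20, -3.41, -3.35 and -3.55 in BL. PCL1 lay just below MCL3, and the other PCL tumours lay above all MCL and BL tumours. The difference from MCL was 2.00 ± 0.53 log2 units and only just under the threshold (limma adjusted p = 0.04997), and that from BL was 1.18 ± 0.49 (limma adjusted p = 0.247).

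**Figure D3:**
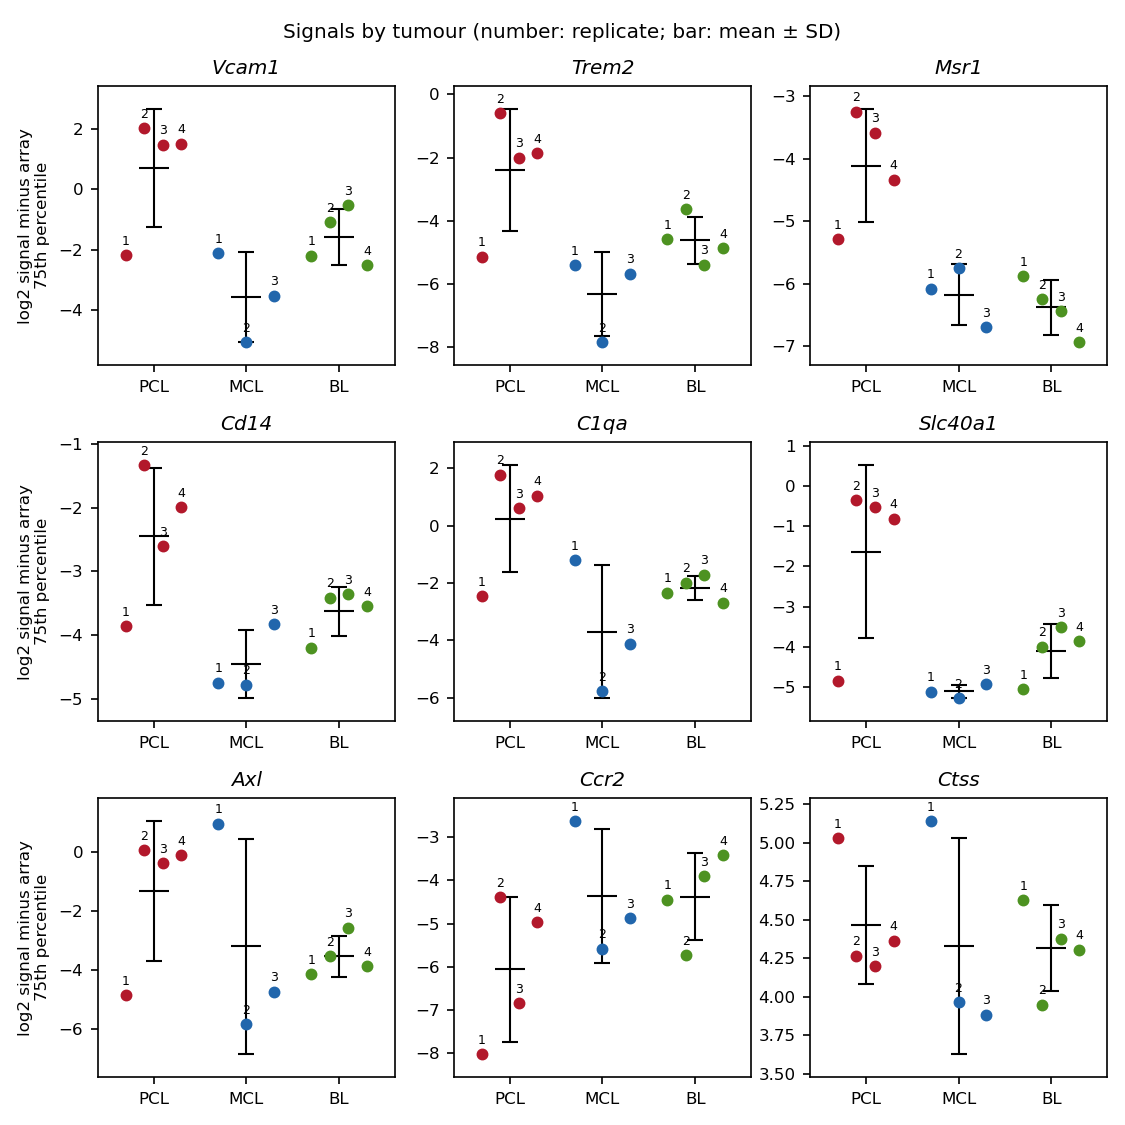
Normalised signals (log2, vertical axes) of 9 genes by type: the 4 called genes, C1qa and Slc40a1, and Axl, Ccr2 and Ctss. Each point is 1 tumour with its replicate number, and bars give the mean ± SD. PCL1 lies apart from the other PCL tumours in the panels of Vcam1, Slc40a1 and Axl, MCL1 is the highest tumour for Axl and Ccr2, and Ctss spans little more than 1 log2 unit.

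The 4 calls depended on single tumours. Without PCL2, PCL3, PCL4, MCL2 or MCL3, 0 members passed the threshold in limma, where the calls among all genes fell too, to 1.65%, 2.73%, 1.67%, 2.36% and 3.47%. Without MCL1, 4 members passed, where 3.43% of all genes did. Of these only Vcam1 was among the first 4, the others being Aif1, C1qa and Fcer1g. The BL arrays enter only through the shared estimate of the spread. Leaving out BL1, BL2, BL3 or BL4 left 2, 1, 1 and 2 calls among the 37 genes, where 7.3%, 5.26%, 5.46% and 6.15% of all genes were called. Without PCL1 the count was 20, as set out further on.

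Complement C1q is made largely by macrophages, and its 3 chains are encoded by neighbouring genes on chromosome 4. C1qa measured -2.45, 1.76, 0.60 and 1.04 in PCL, against -1.20, -5.77 and -4.11 in MCL and -2.34, -1.99, -1.71 and -2.69 in BL. Its differences of 3.93 ± 1.13 log2 units from MCL and 2.42 ± 1.04 from BL did not pass the test (limma adjusted p = 0.0658 and 0.266). C1qc differed by 3.61 ± 1.21 and 2.42 ± 1.12 and C1qb by 2.44 ± 0.87 and 1.87 ± 0.81, also without passing (limma adjusted p from 0.1 to 0.297). The 3 chains ranked the tumours alike at the ends: PCL2 was the highest and MCL2 the lowest tumour for each. Probes of C1qa and C1qb are shown because they tell the chains apart, and lie at chr4:136452409-136452468 (C1qa) and chr4:136436578-136436637 (C1qb), both on the minus strand of mm9.
C1qa probe: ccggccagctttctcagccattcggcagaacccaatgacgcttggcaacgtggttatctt
C1qb probe: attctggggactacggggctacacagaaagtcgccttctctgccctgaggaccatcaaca

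Among the scavenger receptors and lectins, Siglec1, the sialic acid receptor of lymph node sinus macrophages, was seen by its brightest probe in PCL tumours alone. It read -6.08, -1.52, -2.98 and -1.92 in PCL, against -5.42, -7.70 and -6.34 in MCL and -7.08, -6.84, -5.46 and -6.97 in BL. The brightest probe was well above background on 3 of 4 PCL arrays and on 0 of the MCL and BL arrays. The PCL mean was 6.49-fold above MCL and 7.54-fold above BL (limma adjusted p = 0.0735 and 0.107). MCL and BL were taken at the dimmest signal well above background on each array, or at the probe's own signal where that was higher. The PCL mean includes an array on which the probe was not well above background, so these folds are not strict lower bounds. A second Siglec1 probe, well above background on 1 array of each type, gave differences of -0.49 and 0.23 log2 units, so the probes disagreed.

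Mrc1, the mannose receptor, was higher in PCL by 2.67 ± 0.72 log2 units than in MCL (limma adjusted p = 0.0554) and by 1.73 ± 0.67 than in BL (0.217). Marco, a scavenger receptor of bacteria, differed from MCL by 2.59 ± 1.09 log2 units (limma adjusted p = 0.178), and its signal of 1.89 in BL3 lay above that of every tumour except PCL2. Cd36, a fatty acid and thrombospondin receptor found on many cell types, was 1.59 ± 1.20 log2 units higher in PCL than in MCL and 0.33 lower than in BL, and passed neither test. Its lowest value, -6.07, belonged to MCL3. Cd163, the haemoglobin scavenger receptor, and Vsig4, a complement receptor of resident macrophages, were well above background on 1 array each, that of PCL2, at -4.04 and -3.75, and were not tested.

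Slc40a1, the iron exporter ferroportin, gave -4.84, -0.35, -0.53 and -0.81 in PCL, against -5.11, -5.27 and -4.93 in MCL and -5.05, -3.99, -3.51 and -3.85 in BL. The MCL tumours lay within less than 1 log2 unit of each other and below all PCL tumours, of which PCL1 was close to them. The difference from MCL was 3.47 ± 0.95 log2 units and just missed the threshold (limma adjusted p = 0.0568), and that from BL was 2.47 ± 0.88 (0.188). Hmox1, haem oxygenase, differed by 1.95 ± 0.82 from MCL (limma adjusted p = 0.18) and by 1.55 ± 0.76 from BL (0.328). Cd5l, a protein secreted by tissue macrophages, differed by 2.41 ± 1.11 (0.215) and 1.98 ± 1.03 (0.354).

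The receptors for dying cells did not pass the test. Axl read -4.85, 0.06, -0.38 and -0.10 in PCL, against 0.97, -5.83 and -4.74 in MCL and -4.15, -3.54, -2.56 and -3.87 in BL. MCL1 was the highest and MCL2 the lowest of all tumours, so the whole range lay inside MCL. PCL differed from MCL by 1.88 ± 1.62 log2 units (limma adjusted p = 0.512) and from BL by 2.21 ± 1.50 (0.485). Mertk, measured above background on 5 arrays, differed by 2.47 ± 1.01 (0.17) and 1.98 ± 0.94 (0.309). Emr1, now called Adgre1 and encoding the F4/80 antigen of mouse macrophages, differed by 2.68 ± 1.05 (limma adjusted p = 0.154) and 1.87 ± 0.97 (0.354), and its second probe gave 1.95 and 1.64.

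Apoe, the lipoprotein ligand, was higher in PCL than in every BL tumour, at 3.44, 4.67, 3.66 and 3.53 in PCL, against 4.59, 0.51 and 3.43 in MCL and 2.06, 1.97, 2.69 and 1.72 in BL. Its difference from BL was 1.71 ± 0.73 log2 units (limma adjusted p = 0.258). Gpnmb, a glycoprotein of lysosome-rich macrophages, differed from MCL by 2.21 ± 1.11 log2 units (limma adjusted p = 0.257) and from BL by 0.63 ± 1.03 (0.804). Spp1, osteopontin, was well above background on 1 PCL array, 0 MCL arrays and 2 BL arrays, so no difference from MCL is given for it (limma adjusted p = 0.271, and 0.921 against BL).

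Beside Cd14, the monocyte genes did not run one way. Ccr2, the receptor that draws monocytes out of the bone marrow, measured -8.02, -4.39, -6.84 and -4.96 in PCL, against -2.63, -5.58 and -4.87 in MCL and -4.45, -5.73, -3.90 and -3.41 in BL. The types overlapped, and the probe was well above background on 2 of 4 PCL arrays but on all MCL and BL arrays. PCL was lower than MCL by a difference of -1.69 ± 0.98 log2 units (limma adjusted p = 0.322) and lower than BL by -1.68 ± 0.91 (0.376). Cx3cr1, the fractalkine receptor of patrolling monocytes and some resident macrophages, gave -7.16, -1.96, -2.25 and -2.10 in PCL, against -5.46, -6.40 and -6.27 in MCL and -5.08, -4.79, -3.24 and -2.88 in BL. PCL1 was the lowest and the other PCL tumours were the highest of all, and the differences were 2.67 ± 1.17 (0.196) and 0.63 ± 1.09 (0.815). Fcgr4, an activating receptor for IgG, differed by 2.37 ± 1.22 (0.267) and 1.57 ± 1.13 (0.511), and MCL2 was its lowest tumour at -5.39.

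For Itgam, the integrin chain known as CD11b, the 3 probes disagreed, and the brightest probe rests on a simple repeat. That probe starts at base 4431 of its target transcript, as the files number it, and 20 of its first bases are a CA repeat. A CA run as long was present in 76 of the 39429 probes (0.193%), and the other Itgam probes held runs of at most 4 bases. The first 30 bases of the probe are shown with the repeat in capitals, beside the other 2 probes, which start at bases 3410 and 270. They lie on the plus strand of mm9 at chr7:135261755-135261814, chr7:135260275-135260334 and chr7:135212140-135212199.
Itgam probe at base 4431: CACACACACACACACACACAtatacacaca
Itgam probe at base 3410: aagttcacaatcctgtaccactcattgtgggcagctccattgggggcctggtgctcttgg
Itgam probe at base 270: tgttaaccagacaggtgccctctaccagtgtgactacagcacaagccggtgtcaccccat

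The repeat probe varied little, from 2.80 in BL2 to 4.05 in MCL1, and differed by -0.23 ± 0.24 log2 units between PCL and MCL (limma adjusted p = 0.607) and by 0.34 ± 0.22 between PCL and BL (0.466). The probe at base 3410 gave -4.09, -2.39, -2.03 and -2.24 in PCL, against -4.03, -4.36 and -4.47 in MCL and -4.65, -4.11, -4.48 and -4.91 in BL. That is the pattern of the macrophage genes, with PCL2 to PCL4 above every other tumour and PCL1 among them. Its differences were 1.60 and 1.85 log2 units, while the probe at base 270 gave -0.75 and 0.27. What was measured for Itgam therefore depends on the probe.

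**Figure D4:**
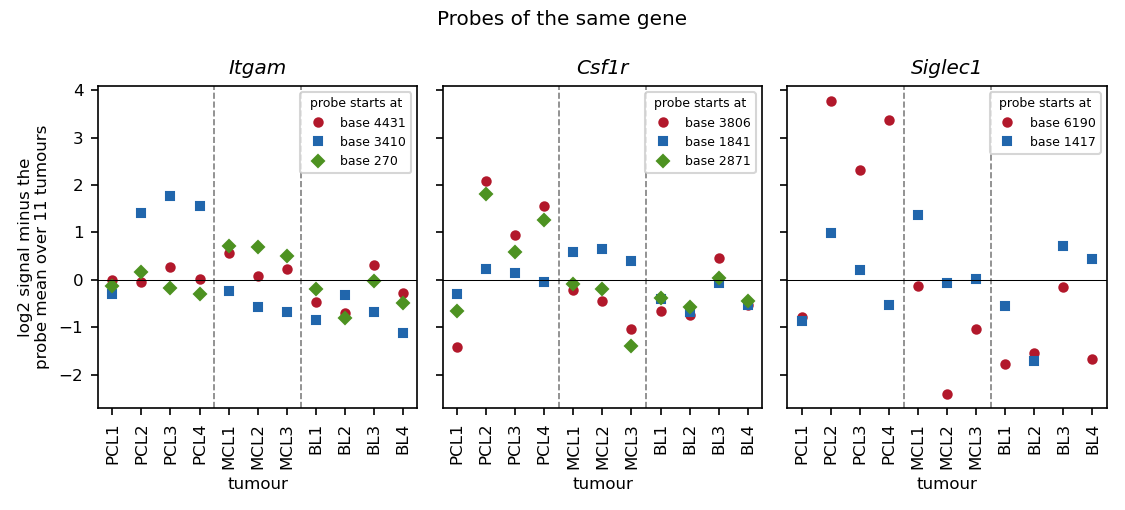
Normalised signals of each probe of Itgam, Csf1r and Siglec1 in the 11 tumours, in log2 units relative to that probe's own mean; symbols mark the probes by their first base in the transcript. For Itgam only the probe at base 3410 is high in PCL2 to PCL4, for Csf1r the probes at bases 3806 and 2871 run together and the one at base 1841 does not, and the Siglec1 probes part in PCL and MCL.

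None of the 13 shared phagocyte genes passed the test. Fcer1g and Tyrobp, the adaptor chains through which Fc receptors and Trem2 signal, differed between PCL and MCL by 2.36 ± 0.76 (limma adjusted p = 0.0932) and 1.42 ± 0.46 log2 units (0.0958), and between PCL and BL by 1.22 ± 0.71 (0.412) and 0.43 ± 0.43 (0.648). Aif1, an actin-binding protein, differed from MCL by 2.09 ± 0.89 (0.184). Csf1r, the receptor for the growth factor on which macrophages depend, differed by 1.36 ± 0.72 (0.277) and 1.16 ± 0.66 (0.403). Its probe at base 2871 gave 1.31 and 1.09, but the one at base 1841 gave -0.53 and 0.43.

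The lysozyme genes Lyz1 and Lyz2, near-identical neighbours whose signals may mix, were higher in PCL than in MCL by 2.16 ± 1.01 (limma adjusted p = 0.222) and 2.67 ± 1.01 log2 units (0.139), and than in BL by 0.24 and 0.54. Fcgr1, the high-affinity receptor for IgG, and Fcgr3 differed from MCL by 1.34 ± 0.56 (0.176) and 0.88 ± 0.60 (0.404). Cd68, a lysosomal glycoprotein, and Cybb, a subunit of the phagocyte oxidase, differed by 0.98 ± 0.83 (0.503) and 1.08 ± 0.59 (0.292). None of these passed against BL either.

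Ctss, the cathepsin that trims the class II invariant chain in antigen-presenting cells, B cells among them, lay between 3.88 and 5.14 in all tumours and did not pass the test, with differences of 0.13 ± 0.34 (limma adjusted p = 0.843) and 0.15 ± 0.31 log2 units (0.855). Ctsb, another lysosomal cathepsin, differed by 0.18 ± 0.32 (0.768) and 0.67 ± 0.29 (0.276). Mpeg1, the pore-forming perforin-2, was lower in PCL than in MCL by -0.59 ± 1.08 (0.78), and MCL1, at 4.34, and BL3, at 3.07, were its highest tumours, as its second probe also showed at -1.18 and -2.70.

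Against Burkitt lymphomas, 34 of the 37 genes were again higher in PCL by sign, with a median difference of 1.22 log2 units, against 0.09 for all genes tested. In limma 0 of the 37 genes were called, where 0.659% of all genes were, and 12 had an unadjusted p under 0.05, against 3543 of the 20181 genes. The values did not overlap for Msr1 and Apoe, or 2 of 37 genes, against 6.64% of all genes with PCL above BL. The median difference of the tissue macrophage genes was 2.47 from MCL and 1.98 from BL, that of the monocyte genes 2.00 and 0.63, and that of the shared genes 1.34 and 0.54. Both comparisons use the same 4 PCL tumours, so they are not separate evidence.

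Between mantle cell and Burkitt lymphomas 28 of the 37 genes were lower in MCL by sign, with a median difference of -0.80 log2 units, against 0.06 for all genes. In limma 0 were called, where 6.64% of all genes were. An unadjusted p under 0.05 was found for 1 gene, Itgam with its repeat probe, against 3726 of the 20181 genes. MCL lay wholly below BL for 5 genes (Mrc1, Trem2, Spp1, Cx3cr1 and Lyz2) and above it for Ctsb, 6 of 37 in all, against 17.7% of all genes in either direction. For Spp1, 0 MCL arrays were well above background. The median difference was -1.36 without MCL1, -0.08 without MCL2, -0.42 without MCL3 and -0.50 without BL3, and stayed below 0 in each.

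**Figure D5:**
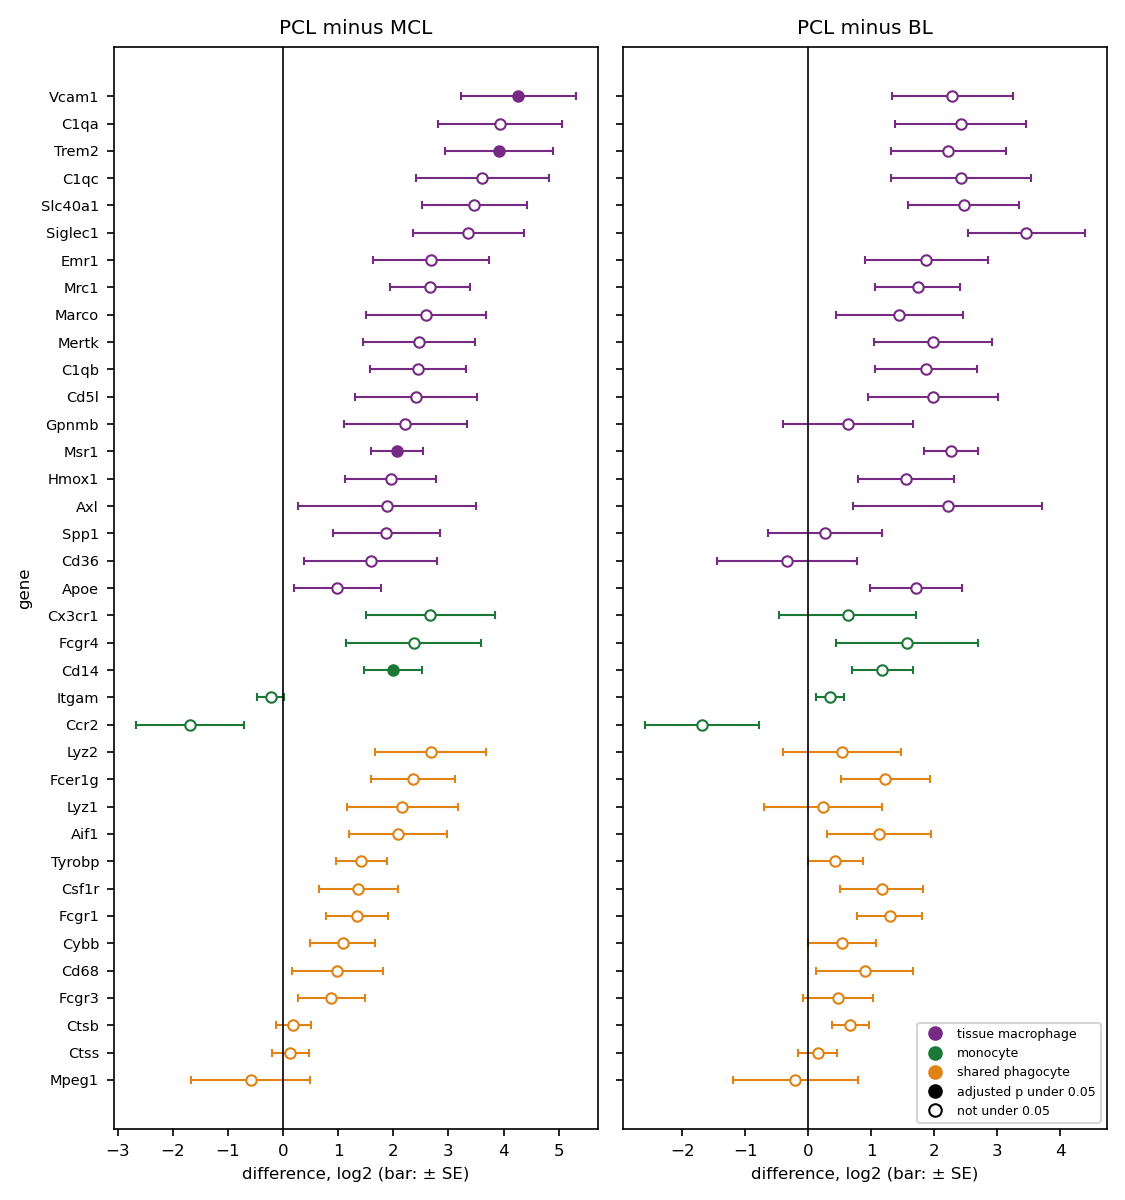
Difference of each of the 37 genes in log2 units (horizontal axes) between PCL and MCL (left) and between PCL and BL (right), with bars for ± 1 standard error. Siglec1 was not well above background in MCL and BL and Spp1 not in MCL, so their points there are not measured sizes. Filled points passed the limma test at an adjusted p under 0.05: Vcam1, Trem2, Msr1 and Cd14 on the left and none on the right. Most points lie to the right of 0 in both panels.

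PCL1 was left out as 1 of the 11 omissions of a single array, and it is described here because its values had been seen to differ. Without it, limma called 20 of the 37 genes between PCL and MCL, all higher in PCL, where 12.2% of all genes were called and 4.75% were called as higher. These were 12 of 19 tissue macrophage genes, 2 of 5 monocyte genes (Cx3cr1 and Cd14) and 6 of 13 shared genes. Between PCL and BL 10 were called, where 5.32% of all genes were: Slc40a1, Msr1, Siglec1, Mrc1, Hmox1, C1qb, Csf1r, Trem2, Vcam1 and Cd14. Siglec1, called in both comparisons, had a probe that passed the filter on dim probes through 3 PCL arrays alone. PCL1 was singled out by its low values, so none of the calls made without it is support for a difference. Slc40a1, for which PCL1 lay far below the other PCL tumours, then differed by 4.54 ± 0.36 log2 units from MCL and by 3.54 ± 0.34 from BL. The larger differences and smaller errors follow from that choice. A fit that weights arrays by their spread, in which PCL1 had a weight of 0.382 against 1.491 to 2.791 for the other PCL arrays, called 22 and 15 genes, where 21.9% and 10.8% of all genes were called.

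Genes that act on these cells or control them were read from further lists. To set beside each list, 6.94% of all genes were called between PCL and MCL. The shares were 0.659% between PCL and BL and 6.64% between MCL and BL. Of 8 tested ligands of the receptors above, 6 were higher in PCL than in MCL by sign and 0 were called, with a median difference of 2.16 log2 units. Gas6, the ligand of Axl and Mertk, differed by 3.55 (limma adjusted p = 0.0611), the monocyte chemokine Ccl12 by 2.41 (0.11) and Csf1, the ligand of Csf1r, by 1.90 (0.0997). Csf1 gave -0.46, 2.08, 1.57 and 2.30 in PCL, against -0.02, -0.81 and -0.77 in MCL and -0.02, 1.54, 0.18 and 0.62 in BL, with PCL1 again the lowest PCL tumour.

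Of 11 transcription factors of macrophages, 7 were higher in PCL than in MCL by sign and 2 were called, where 6.94% of all genes were. Spi1, which encodes PU.1, a factor of myeloid and B cells, gave -2.35, -1.58, -1.51 and -1.33 in PCL, against -2.70, -3.48 and -3.04 in MCL and -2.07, -1.63, -1.98 and -2.28 in BL. It was 1.38 log2 units higher in PCL than in MCL (limma adjusted p = 0.0239), with no overlap. Maf, a factor of resident macrophages and of some T cells, was 3.01 higher (0.0495). Against BL neither passed, at 0.30 (0.606) and 1.43 (0.343).

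PU.1 binds purine-rich sites around the bases GAGGAA, and the promoters of the genes were searched for these letters on both strands. Of the 39 genes, 28 were in the RefSeq promoter table of GRCm38.p6, with 32 promoters that run from 250 bases before to 50 bases after the start. The letters were present in 20 of these (62.5%), from 18 genes, against 28.3% of all 32851 promoters of the same length. The longer form GAGGAAGT, which contains the shorter, was found in C1qc, Ctss, Fcgr4 and Spp1 (12.5%, against 3.2%), and the AP-1 letters TGANTCA in Cd68, Cybb, Gpnmb and Trem2 (12.5%, against 7.81%). These shares describe letters, not binding. Of the genes called between PCL and MCL, Trem2 was among the 18, and Vcam1, Msr1 and Cd14 were not. The 11 genes without a promoter in the table could not be searched. The promoters of C1qb, C1qc and Trem2 are shown as examples that carry the letters, with the 6 letters or their complement in capitals. They lie at chr4:136886151-136886450 (minus strand), chr4:136892865-136893164 (minus strand) and chr17:48346151-48346450 (plus strand).
C1qb promoter: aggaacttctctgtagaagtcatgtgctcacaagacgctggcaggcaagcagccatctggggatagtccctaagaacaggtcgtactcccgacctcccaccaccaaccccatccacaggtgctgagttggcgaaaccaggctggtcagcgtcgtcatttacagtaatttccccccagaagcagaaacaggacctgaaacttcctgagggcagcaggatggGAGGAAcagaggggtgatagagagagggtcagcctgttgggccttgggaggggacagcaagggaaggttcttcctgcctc
C1qc promoter: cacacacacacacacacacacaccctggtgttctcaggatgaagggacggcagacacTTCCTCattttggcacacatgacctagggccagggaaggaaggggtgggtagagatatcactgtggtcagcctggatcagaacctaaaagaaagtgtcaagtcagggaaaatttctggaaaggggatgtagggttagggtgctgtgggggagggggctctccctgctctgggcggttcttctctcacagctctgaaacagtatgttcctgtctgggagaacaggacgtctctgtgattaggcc
Trem2 promoter: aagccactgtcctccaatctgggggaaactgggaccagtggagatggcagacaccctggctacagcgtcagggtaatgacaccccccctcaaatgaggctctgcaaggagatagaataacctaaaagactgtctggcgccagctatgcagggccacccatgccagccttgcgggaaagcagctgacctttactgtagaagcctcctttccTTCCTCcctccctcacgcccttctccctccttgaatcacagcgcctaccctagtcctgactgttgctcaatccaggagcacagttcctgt

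Further lists held other genes of macrophages and of monocytes. Of 15 other macrophage genes tested, 13 were higher in PCL than in MCL by sign, with a median difference of 2.39 log2 units, and 0 were called. Stab1, a scavenger receptor of sinus and tissue macrophages, differed by 3.78 (limma adjusted p = 0.0584) and Clec4n, a C-type lectin, by 2.68 (0.0509). Timd4, a phosphatidylserine receptor, was well above background on 2 PCL arrays and 0 MCL arrays, so no size is given for its difference (limma adjusted p = 0.0623). Of 14 other monocyte genes tested, 9 were higher and 5 lower in PCL than in MCL by sign, with a median difference of 0.42 log2 units, and 7 of the 14 were higher in PCL than in BL. Between PCL and MCL 1 of the 14 was called, a share close to the 6.94% of all genes: Emr4, an adhesion receptor of myeloid cells. Emr4 gave -5.32, -3.48, -3.85 and -4.05 in PCL, against -6.12, -8.23 and -8.23 in MCL and -5.98, -5.94, -4.59 and -4.88 in BL. Its probe was well above background on all 4 PCL arrays and on 0 MCL arrays, so PCL was at least 3.61-fold higher than MCL (limma adjusted p = 0.0168). In MCL against BL, Vcan, a proteoglycan, was higher by 0.68 log2 units (0.0253).

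Of 12 genes of macrophage activation tested, only Nos2, the inducible nitric oxide synthase, was called, and it was lower in PCL than in MCL. That is 1 of 12, a share close to the 6.94% of all genes. It gave -1.02, -1.34, -0.92 and -1.08 in PCL, against 0.36, 0.29 and 0.11 in MCL and -0.82, -1.25, -0.99 and -1.25 in BL. All MCL tumours lay above all others within a narrow band, which was not the pattern of any tissue macrophage gene. The difference between PCL and MCL was -1.35 log2 units (limma adjusted p = 0.00457), and between MCL and BL 1.33 (0.00323). Calls with MCL higher were common over the array. Of all genes, 972 were called lower and 429 higher in PCL than in MCL, and 1301 were called higher and 40 lower in MCL than in BL. As MCL had its own slide, type and slide cannot be told apart in these calls.

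Markers of other cell types also varied among the tumours. Of 10 neutrophil genes, 9 were higher in PCL than in MCL by sign, with a median difference of 1.55 log2 units. In limma 1 of the 10 was called, where 6.94% of all genes were: Elane, lower in PCL by -1.02 (adjusted p = 0.016). S100a9, chosen here after its values were seen, gave -2.19, 3.81, 1.89 and 2.47 in PCL, against -3.18, 0.70 and -0.35 in MCL and -4.82, 2.18, 0.23 and 2.74 in BL. PCL1 was the lowest and PCL2 the highest PCL tumour for it, as for most macrophage genes, but BL4 was the second highest tumour. The summed neutrophil signal, in multiples of the array's 75th percentile, ran from 94.9 to 110 in PCL tumours, from 78.1 to 93.5 in MCL tumours and from 79.8 to 96.7 in BL tumours. Such a sum is set only against the same sum in other tumours. Here and below, a sum leans towards the brightest gene of its list. For neutrophils that was Csf3r, at 6.24 to 6.70 in all tumours, which made up most of the sum. The neutrophil sum therefore says little about the other genes of its list. The median centred signal of the neutrophil genes ran from -1.73 in MCL1 to 2.99 in PCL2. In the sums below the brightest gene was Apoe for tissue macrophages and Siglech, at 6.135 to 6.65, for dendritic cells. It was Kdr for stroma and endothelium, Cd4 for T and NK cells and Hba-a1 for erythroid genes. Siglech likewise made up most of the dendritic cell sum. The part of neutrophils in the results on shared genes such as Lyz2, Fcer1g and Itgam was not tested.

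The summed signal of the 19 tissue macrophage genes ran from 13.7 to 56 in PCL tumours, from 2.46 to 31.5 in MCL tumours and from 6.65 to 14.3 in BL tumours on the same scale. Of 5 dendritic cell genes tested, 3 were higher in PCL than in MCL by sign and 0 were called, with a median difference of 1.03 log2 units. The defining markers Xcr1, Clec9a and Cd209a were well above background on 0 arrays. Flt3, a growth factor receptor of dendritic cells and blood progenitors, is named after its values were seen. It gave 0.48, 0.73, 0.30 and 0.63 in PCL, against -3.28, -0.10 and -4.97 in MCL and -1.91, -0.47, -0.92 and -1.44 in BL. The PCL tumours, PCL1 included, lay above all others, and the difference from MCL was 3.32 log2 units (limma adjusted p = 0.055). The summed signal of the dendritic cell genes was 96.8 to 129 in PCL, 90.2 to 115 in MCL and 82.2 to 97.2 in BL, and their part in the results was not tested. Zbtb46 was higher in MCL than in BL by 0.84 log2 units (limma adjusted p = 0.0292).

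Of 6 stromal and endothelial genes, 4 were higher in PCL than in MCL by sign and 0 were called, with sums of 4.59 to 7.5 in PCL, 6.02 to 8.17 in MCL and 4.07 to 5.21 in BL. Pdgfra was well above background on 0 arrays, and Kdr was higher in MCL than in BL by 0.82 log2 units (0.0476). The part of stroma and endothelium in the Vcam1 result was not tested.

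Of the T and NK cell genes, 2 of 6 were higher in PCL than in MCL by sign, with sums of 2.9 to 3.58 in PCL, 4.41 to 6.49 in MCL and 2.45 to 3.8 in BL. Cd4, also carried by some macrophages, was lower in PCL than in MCL by -0.78 log2 units (limma adjusted p = 0.0368). The 3 erythroid genes tested were higher in PCL than in MCL by sign with 0 called, at sums of 0.884 to 5.68 in PCL, 0.345 to 17.1 in MCL and 1.47 to 13.7 in BL. Of 6 B lineage genes, 5 were higher in PCL than in MCL by sign and 0 were called. Their median centred signal stayed between -0.48 and 0.42 in all 11 tumours, a narrower span than that of any macrophage or monocyte list.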

How the data were processed

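The authors made the scanner intensity values with Agilent Feature Extraction 10.7.3.1, which detrended each array spatially and multiplicatively and did not normalise between arrays, per the file headers. The authors' deposited value table holds log2 values, as found from their range (medians of 7.25 to 7.26), and served as an alternative; the sources used here do not say how it was made. Of 43020 non-control spots, outlier spots were left out, spots of a probe were averaged, and log2 signals were set against the array's 75th percentile (1072 to 1637 intensity units). The filter on dim probes asked for 3 or more arrays well above background. Of the whole array, 46 probes lacked a usable spot on some array and were left out. After both steps 25296 probes remained, for 20181 genes, each read by its brightest probe. Saturation affected 0 spots.

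The test was limma 3.58.1 (R 4.3.3), with a mean per type over all 11 arrays (8 residual and 2.01 prior degrees of freedom), a moderated F test, and Benjamini-Hochberg adjustment over all genes. Every adjusted p comes from this fit, except where an alternative setting is named. A PCL minus MCL difference had a median standard error of 0.31. The method was tested on simulated data. Probe coordinates are those of mm9, per the file headers. Replicate numbers are accession order, which equals the array position, and 1 slide held each type.

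The members and lists were chosen with earlier results of these data known. All 39 members are accounted for. Of each other list every called gene is named, and otherwise at most 3 genes with the smallest F p-value, besides the brightest gene of each summed list. Alternatives were another background correction (normexp, offset 50), quantile normalization, the value table, 2 other filters, the mean of a gene's probes, array weights, each array left out and a replicate block.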

Additional observations from a re-analysis of the deposited data

Results flagged for a closer look

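Of 74 groups checked, the 37 genes in PCL and in BL, 6 had a tumour far from the other 3 of its type, and chance marks about 1 in 20 such groups. Many of these genes moved together within a type, so the groups are not separate draws. No share over all genes is given for this count, and it is not read as an excess. PCL1 stood below the other PCL tumours for 4 genes: Slc40a1 at -4.84, with the nearest PCL tumour at -0.81, Vcam1 at -2.19 (nearest 1.48), Axl at -4.85 (nearest -0.38) and Cx3cr1 at -7.16 (nearest -2.25). These genes belong to iron export, adhesion, uptake of dying cells and monocyte traffic. BL3 stood above the other BL tumours for Emr1 at -2.64 (nearest -3.65) and for Siglec1 at -5.46 (nearest -6.84), although the Siglec1 probe was not well above background in BL. Groups of 3, such as MCL, were not checked in this way.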

How the results depend on the processing

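Between PCL and MCL, 4 members were called by the settings reported. The count was 22 with array weights (21.9% of all genes called), 2 with quantile normalization (7.73%), 1 with the authors' value table (7.57%), 1 of 39 with probes well above background on at least 1 array (4.34%), and 0 with normexp (0.976%). It was 0 with the replicate block (1.94%), and it ran from 0 to 20 when 1 array was left out (1.65% to 12.2%). With probes well above background on all 11 arrays it was 4 of 23 (7.61%), namely Cd14, Mrc1, Slc40a1 and Vcam1. With the mean of a gene's probes it was 3 (6.34%), namely Msr1, Trem2 and Vcam1. Between PCL and BL it was 15 with array weights (10.8%), 0 to 10 when 1 array was left out (0.0248% to 5.32%), and 0 otherwise (0.0644% to 0.823%). The F test called 1 member, 22 with array weights, 0 with normexp, quantile normalization, the value table, the replicate block or probes well above background on all 11 arrays, and 0 to 17 when 1 array was left out. Its calls over all genes moved too, from 1701 to 4763 with array weights, 131 with normexp, 1290 with quantile normalization and 1279 with the value table. They were 341 with the block, 1465 with probes above background on all arrays, and 717 to 2827 when 1 array was left out. No member was called between MCL and BL under any of these settings in limma, where 0.322% to 7.17% of all genes were. The replicate numbers share only a position on the slide. Correlations between tumours of different types ran from -0.046 to 0.172 for the same number and from -0.237 to 0.17 for different numbers. Whether a call lost under the block reflects the position on the slide or a smaller effect was not tested. The cause of these changes was not tested.

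The direction of the members held better than their calls. Between PCL and MCL 34 of 37 were higher with quantile normalization and the value table and 35 with normexp, which moved the median of all genes to 0.16 log2 units, against -0.03. The median difference of the members between PCL and MCL ran from 1.31 with the value table to 3.00 with array weights. It ran from 1.64 to 2.97 when 1 array was left out, and this measure was added after the data were seen. Vcam1 kept its call in 9 of 19 alternatives, Msr1 in 8 of 18, Trem2 in 4 of 18 and Cd14 in 3 of 19, with adjusted p up to 0.128, 0.216, 0.138 and 0.142. Of the other lists, Nos2 kept this call in 19 of 19, Elane in 16, Spi1 in 12 and Cd4 in 10. Emr4 kept it in 12 of 18 and Maf in 3 of 18. Between MCL and BL, Nos2 and Elane kept their calls in 19 of 19, Cd4 in 15, Vcan in 10, Zbtb46 in 8 and Kdr in 5. Limma adjusted p reached 0.901 for Vcan, 0.984 for Zbtb46 and 0.26 for Kdr.

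Only differences that were not called changed sign. Ccr2 turned to 0.0014 between PCL and MCL with normexp, and Itgam to 0.21 with the mean of its probes. Leaving out 1 array turned Apoe (-0.18 to 1.85), Cd36 (-0.19 to 2.91), Ctss (-0.089 to 0.54) and Mpeg1 (-1.57 to 0.76) between PCL and MCL, and Spp1 (-0.59 to 0.91), Cd36 (-0.78 to 0.032), Lyz1 (-0.35 to 1.16), Lyz2 (-0.077 to 1.45), Ctss (-0.040 to 0.25) and Mpeg1 (-0.68 to 0.40) between PCL and BL. Counts over all genes between PCL and MCL, 1401 as reported, were 197 with normexp, 391 with the replicate block, 4424 with array weights and 333 to 2463 when 1 array was left out. Between PCL and BL, 133 as reported, they were 13, 64, 2183 and 5 to 1074, and between MCL and BL, 1341 as reported, 65, 380, 1122 and 687 to 1373. Dim probes such as those of Siglec1, Spp1, Msr1 and Mertk lie near background, where the signal limits what can be measured.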
